A study of Saccharomyces cerevisiae with 6 samples.

Results

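The 10 genes described here, DMC1, MEI4, REC114, REC107, REC102, MND1, SAE3, PCH2, AMA1 and SPO1, act in meiosis, have 1 annotated intron each and were measured in budding yeast cells growing by mitosis. They were chosen by name from the 312 genes for which reads were counted by class, and all 10 were present. Of the other genes, 86 encode ribosomal proteins (RP genes), 165 are further nuclear genes with an intron, called the other non-RP genes below, and the rest have no nuclear intron. Total RNA depleted of rRNA was sequenced from log-phase cells of 3 haploid MATa strains, with 2 biological replicates of each. The fast strain carried rpb1-G1097D, the slow strain rpb1-H1085Y and the WT strain RPB1, each on a LEU2 plasmid in cells without the chromosomal RPB1, which encodes the largest RNA polymerase II (RNAPII) subunit. The names fast and slow refer to how quickly the altered RNAPII transcribes relative to the WT enzyme. All strains also lacked UPF1, which is needed for nonsense-mediated decay, and carried a tagged RPB3, so no library shows RNA levels with that decay intact. Neither UPF1 nor RPB1 has an intron, and the genotypes could not be checked in these tables.

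In growing cells most meiotic genes are held off by the Ume6 repressor at their promoters, and a diploid cell turns them on when it is starved. Their introns are removed by the general spliceosome, and a few of them need Mer1, a splicing activator made only in meiosis that binds an enhancer inside the intron. Mer1 was first known for its need in the splicing of REC107, also called MER2, and acts on AMA1, HFM1 and SPO22 too. MER1 itself has no intron and was not measured in these tables.

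The 6 libraries held 7682741 to 11033195 reads over the counted genes. The 10 genes took 21076 and 22340 of these reads in fast, 15387 and 22304 in slow, and 15481 and 15384 in WT, or 0.146 to 0.216% of each library's counted reads. In bulk RNA, fewer expressing cells and less RNA per cell cannot be told apart. RNA of a1, a regulator that MATa cells make, was present in every library, with 1634 to 2607 uniquely mapped split reads over the intron nearest its start (HMRA1 in R64).

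The introns were short, at 80 to 116 nt with a median of 90 nt, against a median of 147 nt for the 262 introns of the nuclear genes in the tables. Their sequences follow for the genes on which the results turn, as given by RefSeq for R64, 5′ to 3′ on the strand of the gene. Capitals mark the first 6 bases, the best match to the branch site TACTAAC, the last 3 bases and, in REC107 and AMA1, the Mer1 enhancer.
REC107, chrX:469184-469263, minus strand: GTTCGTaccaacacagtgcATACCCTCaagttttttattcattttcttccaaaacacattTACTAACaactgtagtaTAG
AMA1, chrVII:946328-946420, plus strand: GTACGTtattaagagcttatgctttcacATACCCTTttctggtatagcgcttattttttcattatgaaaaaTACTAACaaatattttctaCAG
REC102, chrXII:786616-786712, plus strand: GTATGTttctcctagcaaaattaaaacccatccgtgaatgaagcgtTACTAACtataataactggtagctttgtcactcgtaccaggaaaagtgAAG
REC114, chrXIII:537449-537564, plus strand: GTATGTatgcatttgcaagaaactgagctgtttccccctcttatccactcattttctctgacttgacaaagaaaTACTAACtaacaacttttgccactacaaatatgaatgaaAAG
DMC1, chrV:548553-548644, plus strand: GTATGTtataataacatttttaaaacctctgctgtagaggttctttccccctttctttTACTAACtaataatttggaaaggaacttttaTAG
PCH2, chrII:602104-602216, plus strand: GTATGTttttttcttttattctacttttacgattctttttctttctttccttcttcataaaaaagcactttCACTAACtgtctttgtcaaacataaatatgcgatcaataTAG

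Of the 10 introns, 6 began with GTATGT, as did 189 of the 262 introns (72.1%). The exceptions were REC107 with GTTCGT, shared by 2 of the 262, MEI4 and AMA1 with GTACGT, shared by 26, and SPO1 with GTAAGT, shared by 12. TACTAAC itself was found in 6 of the 10 and in 218 of the 262 (83.2%), and PCH2, MND1, SPO1 and SAE3 had 1 mismatch to it. Both consensus words occurred together in 3 of the 10 introns, those of DMC1, REC102 and REC114, and in 158 of the 262. The introns of REC102, REC114 and SAE3 ended in AAG, the end of 13 of the 262 (4.96%). The Mer1 enhancer was searched as ACACCCTC, ACACCCTT, ATACCCTC and ATACCCTT. It was present on the sense strand of 7 of the 262 introns (2.67%), among them those of REC107 at base 20 and AMA1 at base 29, and on the opposite strand of none. HFM1, at base 20, and SPO22, at base 22, also held it, and the other 8 of the 10 introns did not hold these words.

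The first measurement was the level of each gene, given as reads of all classes per kb of gene, scaled to the total of the whole library. REC107, which binds Rec114 and Mei4 in a complex that Spo11 needs to break DNA, was by far the highest of the 10. It had 6047 and 6148 reads per kb in fast, 4233 and 5487 in slow, and 5691 and 4967 in WT, so that the strains overlapped. On this scale REC107 lay above 104 of the 165 other non-RP genes in WT (mean 5329 ± 512, SD, n = 2).

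PCH2, SPO1, DMC1, REC102, REC114 and MEI4 formed a middle group, with WT means between 746 and 1324 reads per kb. In WT each of these 6 lay above 18 to 31 of the 165 other non-RP genes. MND1, AMA1 and SAE3 were lowest. In WT, MND1 averaged 135 ± 2.99, AMA1 56.2 ± 5.69 and SAE3 47.3 ± 4.37 reads per kb (SD, n = 2), the last 2 of which differed by little more than their SDs. SAE3 had only 9 to 52 reads in a library.

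**Figure D1:**
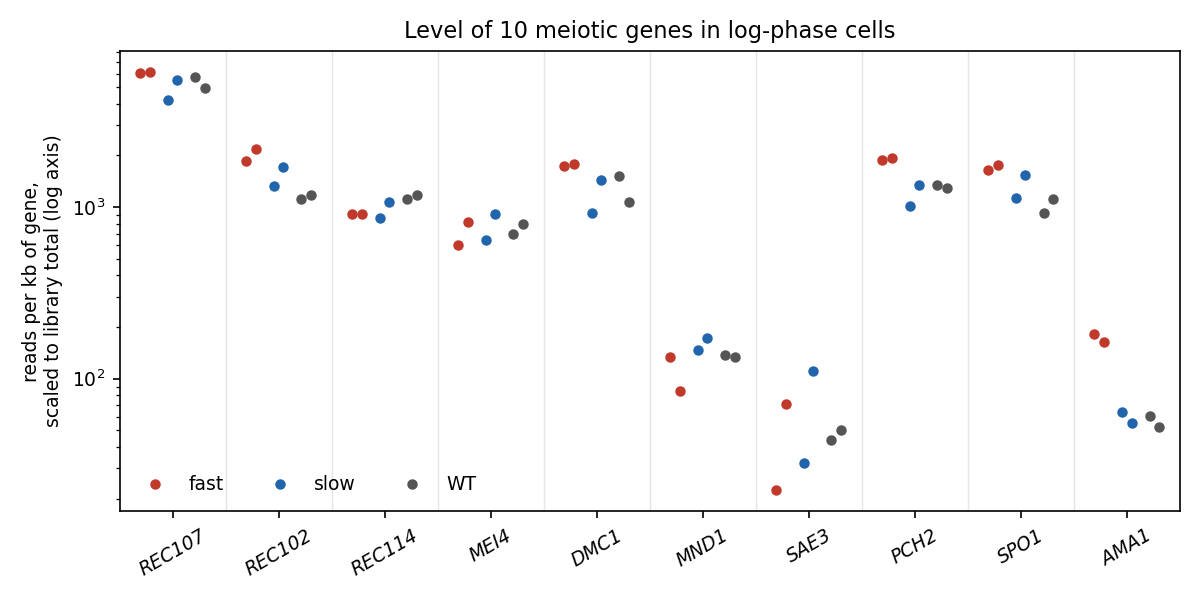
Reads of all classes per kb of gene, scaled to the total of the whole library (log axis), for the 10 meiotic genes. Each point is a library of fast (red), slow (blue) or WT (grey). REC107 stands at 4233 to 6148 reads per kb in all 6 libraries, and AMA1 is higher in both fast libraries than in the slow and WT libraries.

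The question put to these strains was whether the speed of RNAPII changes RNA and its splicing. For the level, total reads of each gene were compared with WT in edgeR, relative to the other counted genes. In fast, 4 of the 10 genes rose (AMA1, REC102, SPO1 and PCH2) and none fell, at an adjusted p under 0.05. Over all 312 genes 8.97% were called higher and 22.4% were called in either direction. The median log2 change was 0.33 for the 10 genes, 0.02 for all 312 and 0.06 for the 165 other non-RP genes. In slow, REC102 and SPO1 rose and none of the 10 fell, where 33% of all genes were called higher and 59.9% in either direction. Here the medians were 0.32 for the 10 genes, 0.13 for all and 0.24 for the 165 other non-RP genes. The share called among the 10 was therefore above the background for higher calls in fast and below it in slow. Both comparisons share the WT libraries. These fits had no replicate block, and with one 6 of the 10 genes were called higher in fast and 1, REC114, lower, as given below.

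AMA1, which encodes a meiosis-specific activator of the anaphase-promoting complex, had 381 and 344 reads in fast, 143 and 135 in slow, and 113 and 102 in WT. Both fast libraries lay well above the other 4, which lay close together. The log2 change was 1.63 ± 0.30 (SE) in fast (adjusted p = 0.00746) and 0.35 ± 0.31 in slow (adjusted p = 0.345). Most of these reads lay in exon 1, of 1183 nt, with 327 and 326 reads in fast, 134 and 95 in slow, and 104 and 66 in WT. Exon 2, of 599 nt, had 40 and 16 reads in fast, 1 and 34 in slow, and 2 and 23 in WT, and these overlapped. Exon 1 took 85.8 and 94.8% of the AMA1 reads in fast, 93.7 and 70.4% in slow, and 92.0 and 64.7% in WT. Whether the counting used strand is not stated, so antisense reads cannot be told apart. The reads at the intron itself were few, with 28 boundary reads, 8 junction reads and 14 reads through the intron in all.

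**Figure D2:**
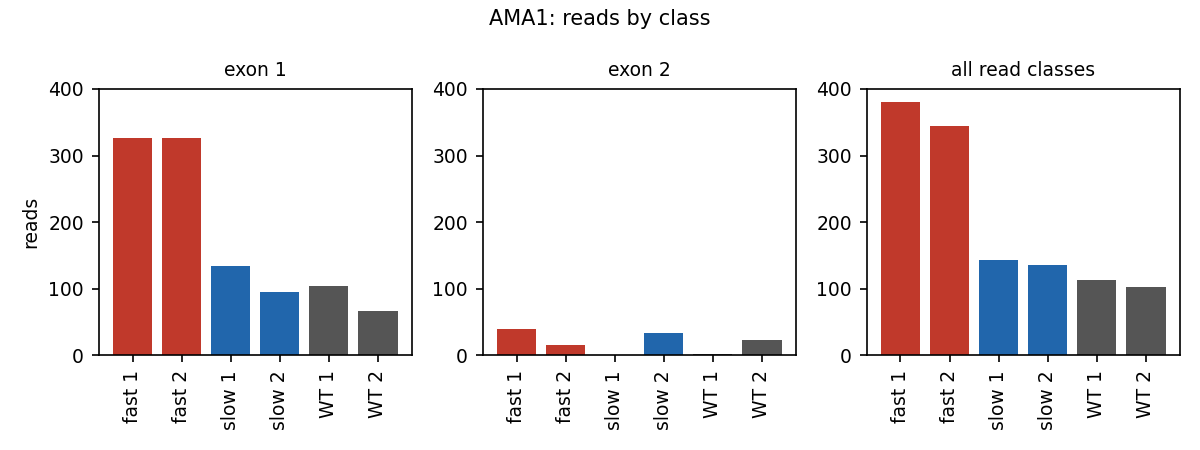
AMA1 reads (not scaled) in exon 1, in exon 2 and in all read classes, for each of the 2 libraries of fast, slow and WT. Exon 1 holds 326 or 327 reads in fast and at most 134 in the other libraries, whereas exon 2 does not separate the strains.

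REC102, part of the core complex of Spo11, had 1848 and 2183 reads in fast, 1410 and 1988 in slow, and 997 and 1094 in WT. All 4 mutant libraries lay above both WT libraries. Its log2 change was 0.82 ± 0.14 in fast (adjusted p = 0.00618) and 0.64 ± 0.14 in slow (adjusted p = 0.00535). Here the reads lay mostly in exon 2, with 1517 and 1688 in fast, 1278 and 1743 in slow, and 711 and 844 in WT.

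SPO1, which resembles phospholipase B and is needed for meiotic divisions and spore formation, had 3639 and 3889 reads in fast, 2668 and 3970 in slow, and 1825 and 2285 in WT. Again each mutant library exceeded both WT libraries. Scaled to the whole library, slow replicate 1 did so only narrowly, with 1129 reads per kb against 1108 in WT replicate 2. The log2 change was 0.74 ± 0.15 in fast (adjusted p = 0.00941) and 0.63 ± 0.15 in slow (adjusted p = 0.00725). Scaling to the whole library moved the median of all genes in slow to -0.12, with 127 of 312 genes called. Neither of these 2 genes was then called in slow (REC102 0.41, adjusted p = 0.122, and SPO1 0.40, adjusted p = 0.116). Without slow replicate 2, SPO1 was not called in slow (0.55, adjusted p = 0.0526).

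PCH2, an ATPase of the meiotic checkpoint that acts on chromosome axis proteins, had 3773 and 3915 reads in fast, 2181 and 3145 in slow, and 2444 and 2441 in WT. Scaled to the whole library, these were 1875 and 1927 reads per kb in fast, 1011 and 1341 in slow, and 1352 and 1296 in WT. The fast libraries were above all others. On that scale slow replicate 1 was below both WT libraries and slow replicate 2 lay between them. The log2 change was 0.53 ± 0.10 in fast (adjusted p = 0.00843, but 0.103 with scaling to the whole library) and 0.07 ± 0.10 in slow (adjusted p = 0.590). The slow value turned to -0.17 with scaling to the whole library. In fast that scaling called 27 of all 312 genes, against 70 in the main fit.

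The remaining 6 genes were not called in either mutant. In fast, DESeq2 called 6 genes in place of 4, with DMC1 (adjusted p = 0.0480) and REC107 (adjusted p = 0.0449) as the further ones. DMC1, the strand exchange protein of meiosis, had 2115 and 2188 reads in fast, 1211 and 2042 in slow, and 1667 and 1217 in WT. Its log2 change in fast was 0.46 ± 0.17 (adjusted p = 0.0902). Without WT replicate 1 it was 0.64 and called (adjusted p = 0.0353), and without WT replicate 2 it was 0.29 (adjusted p = 0.340). REC107 had a value of 0.20 ± 0.08 in fast (adjusted p = 0.114). REC114 had 1425 and 1430 reads in fast, 1442 and 1945 in slow, and 1573 and 1724 in WT, a log2 change of -0.34 ± 0.13 in fast (adjusted p = 0.108). When replicates were blocked by number, these 3 passed in fast, at 0.46 for DMC1 (adjusted p = 0.0219), 0.20 for REC107 (adjusted p = 0.0375) and -0.33 for REC114 (adjusted p = 0.0439), for 7 called genes in place of 4. The share of all genes called with DESeq2 or with the block is not given here, so nothing is read from these higher counts. MEI4, MND1 and SAE3 had adjusted p-values between 0.234 and 0.994 in the mutants.

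**Figure D3:**
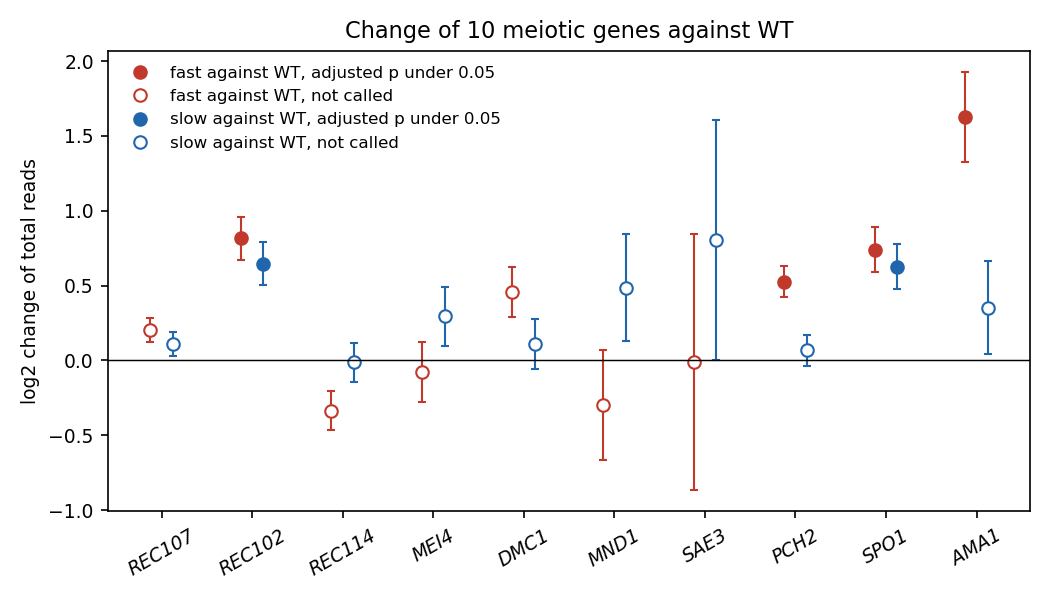
The log2 change of total reads against WT for the 10 genes, in fast (red) and slow (blue), as fitted with edgeR relative to all counted genes. Bars are SE and filled points have an adjusted p under 0.05. AMA1 at 1.63 in fast is the largest change, and REC102 and SPO1 are filled in both mutants.

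Set by role, the genes for DNA break formation (REC107, REC102, REC114 and MEI4) had 1 called gene of 4 in each mutant, which was REC102 both times. For strand exchange (DMC1, SAE3 and MND1) none of 3 was called in either mutant. Both genes of meiotic exit and spore formation were called in fast and SPO1 alone in slow, and the checkpoint gene PCH2 in fast. These counts by role stand beside 8.97% of all genes called higher in fast and 33% in slow, and with so few genes nothing is read from them. They changed with the replicate block, which added REC107, REC114 and DMC1 in fast, and with scaling to the whole library, which left none in slow. Among 3 further meiotic genes with introns, HOP2, HFM1 and SPO22, none was called in either mutant. HOP2, whose protein works with Mnd1 to help Dmc1, had 95 and 139 counted reads in fast, 124 and 84 in slow, and 59 and 38 in WT. Its log2 change was 1.15 ± 0.48 in fast (adjusted p = 0.133) and 1.11 ± 0.49 in slow (adjusted p = 0.0791). In each library these counts were below the unique split reads at the intron near its end, given below. They therefore leave out reads of HOP2, and its level is not read from them. HFM1, a meiotic helicase, and SPO22, a protein of crossover formation, had log2 changes between -0.01 and 0.20.

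The next measurement was the share of RNA that keeps the intron. As in the study, reads on either exon–intron boundary and reads lying within the intron stood for pre-mRNA, while reads over the spliced junction stood for mRNA. None of the 10 genes had a read wholly inside the intron, which is shorter in each than the 150 base reads, so that all of their pre-mRNA reads were boundary reads. Summed over the 10 genes, boundary reads were 2297 and 2715 in fast, 1652 and 2742 in slow, and 2157 and 1920 in WT. Junction reads were far fewer, at 129 to 298 in a library, with both slow libraries above the other 4. The unspliced class was thus the larger one by far in every library.

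Gene by gene the pre-mRNA share, meaning pre-mRNA reads over pre-mRNA and junction reads, had a median of 95.1 and 97.1% in the fast libraries, 82.2 and 91.9% in the slow libraries and 93.1 and 93.8% in the WT libraries. For 161 other non-RP genes with enough reads the medians were 18.4 to 24.2%, and for RP genes 9.64 to 15.4%. The share was over 50% in 8 to 10 of the genes in fast, 7 and 9 in slow, and 8 and 9 in WT. It was also over 50% in 41 to 44 of the other non-RP genes in each library, so these genes were not alone in this. The other non-RP genes include the meiotic genes HOP2, HFM1 and SPO22. In every library the share was 100% for HFM1, from few reads, and 96.3 to 100% for SPO22.

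PCH2 was the most constant by this share. Its pre-mRNA share was 99.2 ± 0.71% in fast, 98.2 ± 1.0% in slow and 98.5 ± 0.23% in WT (SD, n = 2 each), from 1381 to 1565 reads a strain. These rest on the exon 1–intron boundary, with 4298 reads over the libraries against 100 at the other boundary. By through reads, described below, the unspliced share was 98.9 ± 1.05% in fast, 93.0 ± 5.92% in slow and 95.6 ± 0.43% in WT. SPO1 had 93.0 ± 2.07% in fast, 93.3 ± 9.51% in slow and 98.1 ± 2.65% in WT. REC102 had 95.7 ± 6.08% in fast, 85.9 ± 10.4% in slow and 91.0 ± 1.44% in WT. In each library these 3 genes had more pre-mRNA reads than reads over the annotated junction. The share leaves out reads spliced to unannotated sites, which matter for REC102. In slow replicate 1 it had 44 pre-mRNA reads, against 22 unique split reads at the annotated junction and 12 and 20 at sites upstream of it, described below, so that spliced reads outnumbered boundary reads there.

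REC107, with the most junction reads, had 86.2 ± 1.28% in fast, 84.9 ± 3.91% in slow and 90.2 ± 10.3% in WT. Its junction reads were 118 and 124 in fast, 127 and 124 in slow, but 21 and 125 in WT, so that WT replicate 1 stood apart from the other 5 libraries. STAR counted fewer unique split reads for REC107, at 30 and 40 in fast, 50 and 91 in slow, and 9 and 57 in WT, and with these its pre-mRNA share was 90.7 to 98.9%. DMC1 had 96.2 ± 3.67% in fast, 95.2 ± 6.72% in slow and 88.2 ± 10.4% in WT, from junction reads of 4 and 32 in fast, 0 and 42 in slow, and 47 and 8 in WT. In WT, PCH2 and SPO1 differed by less than the SD of SPO1. Within a strain such counts differed by far more than counting error, and the SDs of neighbouring genes overlap: in WT the order of REC102, REC107, MND1 and DMC1 cannot be told from their spread.

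REC114, the partner of Mei4 and Rec107, had the lowest share among the genes with over 20 junction reads in slow. Its pre-mRNA reads were 31 and 0 in fast, 40 and 41 in slow, and 70 and 49 in WT. Its junction reads were 6 and 6 in fast, 64 and 58 in slow, and 14 and 16 in WT, with both slow libraries above the other 4. The share was 39.9 ± 2.09% in slow and 79.4 ± 5.62% in WT. In fast it ran from none of 6 reads to 31 of 37 reads, and no mean is read from it. Exon 2 of REC114 is only 45 nt long, and split reads counted by STAR showed the same order with more reads, at 16 and 22 in fast, 82 and 65 in slow, and 32 and 36 in WT. Almost all of its pre-mRNA reads lay at the exon 1–intron boundary, with 0 and 0 at the other boundary in WT and 0 and 6 in slow. By through reads, described below, the unspliced share was 6.25 ± 8.84% in WT and 4.93 ± 6.97% in slow (SD, n = 2). The difference between slow and WT in the pre-mRNA share was thus not seen with through reads.

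The rest had few reads at the intron. MEI4 had no junction read in fast or WT, against 52 and 162 pre-mRNA reads, and 10 junction reads in 1 slow library. STAR, however, counted 8 unique split reads at its junction in WT replicate 1 beside 10 in slow replicate 1, and assigned 119 more to several places, which were not used. No limit on the spliced share of MEI4 is therefore given. SAE3, which works with Mei5 to load Dmc1, had 9 and 9 junction reads in WT and no pre-mRNA read, but 7 reads ran through its whole intron in WT replicate 1. In slow SAE3 had 6 and 10 pre-mRNA reads and 8 and 4 junction reads, and in fast 1 and 4 pre-mRNA reads and 0 and 19 junction reads. MND1 had 33 pre-mRNA reads in fast and 17 each in slow and WT, and 0 to 8 junction reads in a library. Exon 1 of MND1 is 3 nt long, and STAR counted 26 and 0 split reads for it in fast, 0 and 6 in slow, and 13 and 27 in WT. In both WT libraries these were more than its pre-mRNA reads, of 12 and 5. AMA1 had 15 pre-mRNA reads in fast, 6 in slow and 7 in WT, and its 8 junction reads were all in WT replicate 2.

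**Figure D4:**
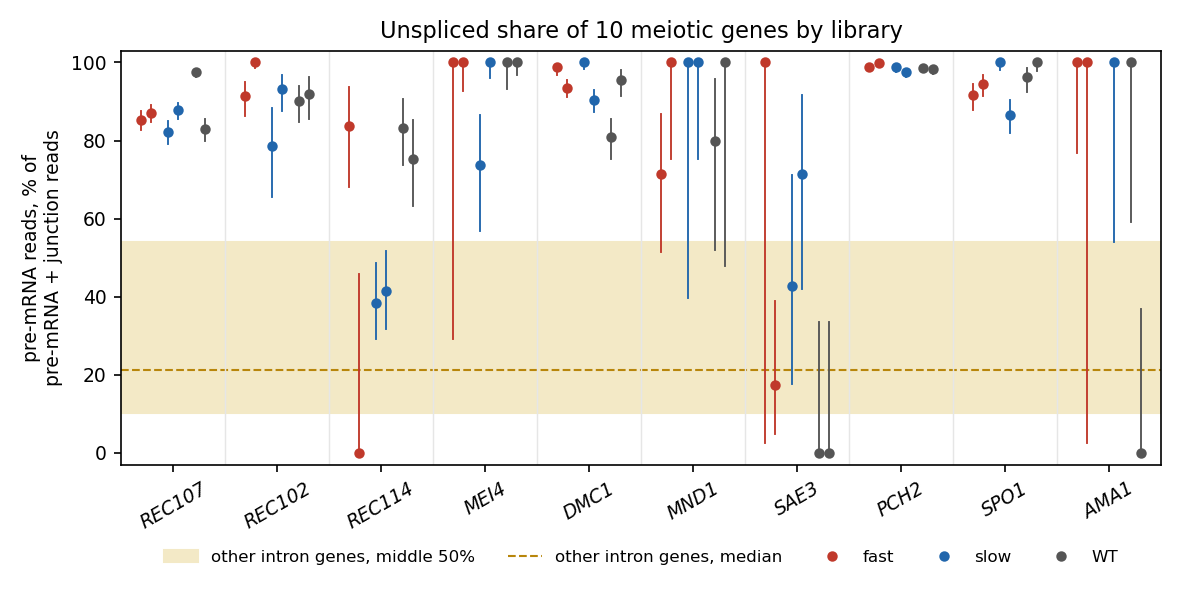
Pre-mRNA reads as a percentage of pre-mRNA and junction reads, for each gene and library of fast (red), slow (blue) and WT (grey), with exact 95% intervals for counting error. The band and dashed line give the middle 50% and the median of the other non-RP genes, averaged over the libraries. PCH2, SPO1, REC102, DMC1 and REC107 lie above the band in all 6 libraries, and REC114 in slow and SAE3 in WT lie in or below it.

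The ratio of both kinds, pre-mRNA over mRNA reads, was then tested across the strains. AMA1 had too few junction reads, and none of the other 9 genes was called in fast (8.4% of 250 genes called) or in slow (0% called). None of the 9 reached an unadjusted p under 0.05 either, where 74 of all 250 genes did in fast and 35 in slow. DESeq2 called none of the 9. The log2 change of the ratio was 1.02 ± 0.72 for PCH2 in fast (adjusted p = 0.399) and -0.28 ± 0.65 in slow (adjusted p = 0.849). The value in fast was 2.49 without fast replicate 1 and 0.27 without fast replicate 2. For REC107 it was -0.92 ± 0.79 in fast (adjusted p = 0.472) and -1.05 ± 0.79 in slow (adjusted p = 0.554). Without WT replicate 1 these values of REC107 were 0.37 and 0.24. For REC114 it was -2.55 ± 1.49 in slow (adjusted p = 0.444). With SEs of 0.65 and more, a 2-fold change of these ratios could not be detected. How much of this came from few reads and how much from the spread between libraries was not tested. REC102 was called in fast only when fast replicate 1 was left out (7.75), which leaves a library without a read at the annotated junction. That library had 16 split reads to a site 5 nt upstream and 3 to a site 29 nt upstream, described below. The ratio leaves these out.

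Spliced and unspliced reads were also tested apart. Of 6 genes with enough junction reads none was called in fast (24.5% of 265 genes called) or slow (42.6% called), and DESeq2 called none. In each mutant 1 of the 6 had an unadjusted p under 0.05, beside 94 of all 265 genes in fast and 135 in slow. The junction reads of REC114 gave a log2 change of 1.93 ± 0.88 in slow (adjusted p = 0.0606, 0.0116 to 0.394 over the alternatives). Those of REC107 gave 0.71 ± 0.49 in fast (adjusted p = 0.298) and 0.66 ± 0.49 in slow (adjusted p = 0.273). Without WT replicate 2 these were 2.58 and 2.53 and were called (adjusted p = 0.0167 and 0.00901), and without WT replicate 1 they were -0.09 and -0.14.

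Among pre-mRNA reads, 1 of 9 genes tested, DMC1, rose in fast (10.4% of 259 genes called higher, 17.4% in either direction) and in slow (9.27% called higher, 22.8% in either direction). DMC1 had 318 and 466 boundary reads in fast, 211 and 400 in slow, and 198 and 170 in WT. The log2 change was 1.09 ± 0.30 in fast (adjusted p = 0.0118) and 0.84 ± 0.30 in slow (adjusted p = 0.0475). The 2 boundaries differed, however. At the intron–exon 2 boundary DMC1 had 269 and 408 reads in fast, 354 in slow replicate 2, and 126 and 139 in WT, and slow replicate 1 was also above both WT libraries. At the exon 1–intron boundary it had 49 and 58 reads in fast, 6 and 46 in slow, and 72 and 31 in WT, which overlapped. The call in fast was lost with scaling to the whole library (adjusted p = 0.109), which called only 5 of all 259 genes in fast. It was also lost without fast replicate 2 (0.85) and without WT replicate 2 (1.01). The call in slow was lost without any of the slow or WT libraries (adjusted p = 0.0773 to 0.250), with RLE size factors (adjusted p = 0.0617) and with scaling to the whole library (adjusted p = 0.457). With the replicate block MEI4 also passed in fast, with fewer pre-mRNA reads (-2.09, adjusted p = 0.0422, against -1.68 and 0.200 without it). It had 3 and 49 boundary reads in fast, 28 and 88 in slow, and 52 and 110 in WT. Without fast replicate 1, the library with 3 reads, the value was -0.82 (adjusted p = 0.547), and without fast replicate 2 it was -4.65 (adjusted p = 0.00095).

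The unequal boundaries of DMC1 were not unusual for these genes. Over the 6 libraries DMC1 had 262 reads at the exon 1–intron boundary and 1501 at the intron–exon 2 boundary. PCH2 had 4298 and 100, with an exon 2 of 144 nt. REC114 had 225 and 6, and MEI4 had 284 and 46, with an exon 1 of 63 nt. The 2 boundaries were near each other in REC107 (1951 and 2457), REC102 (403 and 480) and SPO1 (624 and 730).

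A further class of reads ran from exon 1 through the whole intron into exon 2, and was not part of the pre-mRNA reads above. Summed over the 10 genes these were 1791 and 2075 in fast, 880 and 1471 in slow, and 1150 and 1562 in WT, several for each junction read. The share of through reads among through and junction reads had a median over the genes of 86.7 and 95.6% in fast, 83.8 and 86.2% in slow, and 79.0 and 94.3% in WT. For the other non-RP genes with introns up to 120 nt the medians were 6.71 to 12.4%, and for RP genes 0.938 to 1.21%. PCH2 had 1129 through reads over both libraries of fast, 395 in slow and 452 in WT, against 12, 30 and 21 junction reads in these strains. REC107 had 714 and 832 in fast, 362 and 707 in slow, and 519 and 706 in WT. REC114 had 13 and 6 in fast, 7 and 0 in slow, and 2 and 0 in WT, and was the only gene with many junction reads and almost no through reads. Counting through reads as pre-mRNA called none of the genes in either mutant.

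At REC102, split reads also joined the annotated 5′ splice site to 3 sites upstream of the annotated 3′ splice site (3′SS). The annotated junction had 16 and 0 unique reads in fast, 22 and 9 in slow, and 19 and 10 in WT. A site 5 nt upstream, which ends the intron at 786707 with the letters AAG, had 0 and 16 reads in fast, 20 and 25 in slow, and 4 and 4 in WT. A site 29 nt upstream, at 786683 with TAG, had 5 and 3 in fast, 12 and 21 in slow, and none in WT. A site 11 nt upstream, at 786701 with CAG, had 6 and 0 in fast, 0 and 6 in slow, and none in WT. In the intron printed above these ends fall at accaggaaaag, aactggtag and ctcgtaccag. Summed over the libraries of a strain, the upstream sites had 30 reads in fast, 84 in slow and 8 in WT, beside 16, 31 and 29 reads of the annotated site in these strains. Both slow libraries were above all others at the 5 nt and the 29 nt site, and no test was run on these few reads. No shift was a multiple of 3.

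**Figure D5:**
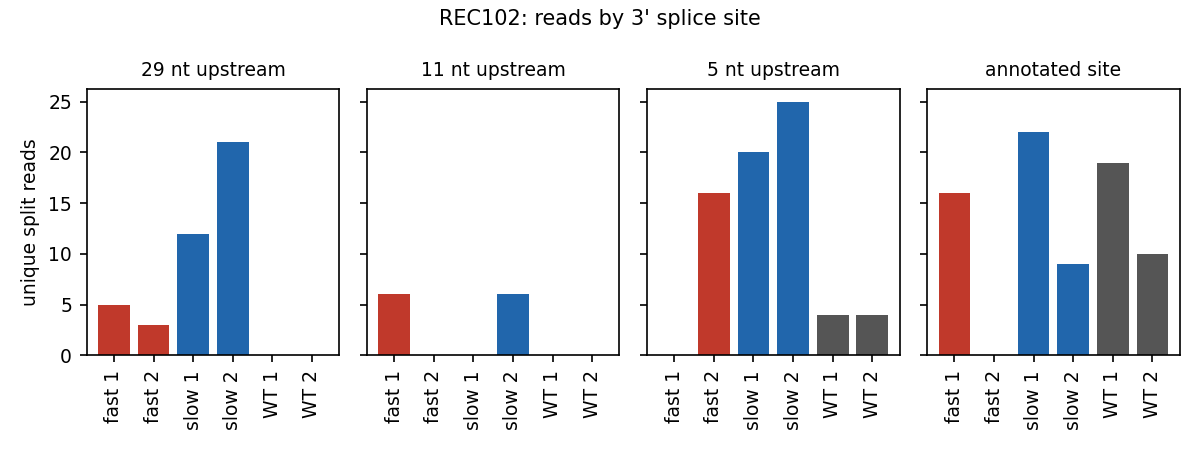
Unique split reads from the annotated 5′ splice site of REC102 to each of 4 3′ splice sites, by library of fast, slow and WT. The site 29 nt upstream has 12 and 21 reads in slow and none in WT, and the site 5 nt upstream has 20 and 25 in slow and 4 and 4 in WT.

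The other genes had little of this kind. DMC1 had 6 reads at 1 shifted site beside 134 annotated ones, MND1 5 beside 72, SPO1 2 beside 85 and REC114 1 beside 253. AMA1, SAE3, MEI4, PCH2 and REC107 had none that shared an end with the annotated intron. Inside exon 1 of REC114, 2 junctions were placed on the opposite strand. That from 536683 to 537273 had 25 unique reads in fast replicate 1 and 5 in WT replicate 1. The other, from 537074 to 537273, had 11 and 5 in fast. Antisense reads among the counted reads of REC114 cannot be told apart, as for AMA1. SPO1 had an unannotated intron inside exon 2, from 611502 to 611598 on chromosome XIV, with 5 and 5 unique reads in fast, 16 and 20 in slow, and 0 and 4 in WT. A junction from the same start to 611607 had 4 more unique reads, all in WT replicate 2. HOP2 had 2 introns in RefSeq. At the one near its end, from 436313 to 436374 on chromosome VII, 191 and 353 reads were split in fast, 237 and 372 in slow, and 154 and 117 in WT, against 20 and 4, 0 and 7, and 0 and 0 in these strains at the intron near its start.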

How the data were processed

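Per the labels and the methods of the study, total RNA was depleted of rRNA, and the authors aligned strand-specific paired reads of 150 bases to R64 (sacCer3) with STAR (version not given in the sources used). The authors deposited raw counts of split reads per junction, and raw read counts for each gene, split by class, from the dice-count function of DICEseq. Whether that counting used strand, and how the class of reads through the whole intron was defined, is not stated. The FPKM values that the authors deposited beside the counts gave only the relative total of each library (count divided by FPKM), at 1.11 and 1.12 in fast, 1.19 and 1.30 in slow, and 1 and 1.04 in WT. Reads carry no molecular identifiers, and intervals cover counting error only.

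Levels were scaled by TMM, filtered by the edgeR default for low counts and tested by quasi-likelihood in edgeR 4.0.16 under R 4.3.3. Ratios were tested on 2 columns per library, for genes whose pre-mRNA and junction reads each summed to 10 or more. All 6 libraries entered each fit, and adjusted p-values are Benjamini-Hochberg values over all genes tested (threshold 0.05). DESeq2 1.42.0, other scalings, filters and gene sets, left-out libraries and a replicate block were alternatives. The fast against slow comparison and the use of through reads were added after the data were seen. Fitting was checked on simulated counts with 1 set spread for all genes, and ratios were changed only in genes with more reads than the test required. That check does not cover the few junction reads and wide spread between duplicates of these genes. Differences between replicates correlated across the 312 genes for each pair of strains (r = 0.27, 0.49 and 0.31), so replicate numbers may pair the libraries. The main fits did not use this pairing, and only the replicate block did. The labels do not say that a number marks a shared day.

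Introns were read from RefSeq R64, whose positions matched the junction tables. The genes were named by the rule that all 10 are described, with HOP2, HFM1 and SPO22 as further genes. These genes and lists were chosen with earlier results of these data known. Scripts used Python 3.11.15, pandas 2.3.3, scipy 1.17.1 and matplotlib 3.10.9.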

Additional observations from a re-analysis of the deposited data

Results flagged for a closer look

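The changes of 2 of the 10 genes differed between the mutants when fast was tested against slow in the same edgeR fit. The log2 difference of total reads, fast minus slow, was 1.28 ± 0.30 (SE) for AMA1 (adjusted p = 0.00732) and 0.46 ± 0.10 for PCH2 (adjusted p = 0.00635). Both fast libraries were above both slow libraries for each gene. Over all 312 genes 58.7% were called in this comparison and 25% were called higher in fast. The call of AMA1 was lost without slow replicate 2 (1.03, adjusted p = 0.0624), and that of PCH2 without slow replicate 1 (0.41, adjusted p = 0.0517).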

How the results depend on the processing

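The splicing ratios had both few junction reads for most genes and a wide spread between duplicates, and which of these limited them was not tested. With the replicate block 7 genes were called for total reads in fast, 2 for pre-mRNA reads in fast and 5 for total reads of fast against slow, and it changed no other count of calls by over 1.5 times. The shares of all genes called with the block are not given here. With scaling to the whole library none was called for total reads in slow or for pre-mRNA reads in fast (0) and slow (0), and with RLE size factors 0 for pre-mRNA reads in slow. With only slow and WT libraries in the fit 1 was called for junction reads in slow. Over the fits that leave out 1 library, the calls ranged from 0 to 1 for the ratio in fast, 1 to 2 for total reads in slow, 0 to 1 for junction reads in fast and in slow, 0 to 2 and 0 to 1 for pre-mRNA reads in fast and slow, and 1 to 3 for fast against slow.

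The mean over libraries of the median pre-mRNA share was 96.1% in fast, 87.0% in slow and 93.4% in WT. Counting boundary reads against 2 junction reads gave 92.7% in fast, 77.4% in slow and 87.8% in WT. Split reads of STAR gave 97.4% in fast, 91.4% in slow and 89.8% in WT, which puts slow above WT. Through reads gave 91.2% in fast, 85.0% in slow and 86.6% in WT. The following values turned sign under an alternative, and none was called as reported or with the turned sign. In slow, total reads of PCH2 gave -0.0329 with RLE size factors, -0.0326 with DESeq2, -0.17 with scaling to the whole library and -0.0103 to 0.12 with 1 library left out. Total reads of DMC1 and REC107 in slow both gave -0.13 with that scaling, and DMC1 gave -0.0651 to 0.27 with 1 library left out. Total reads of REC114 in slow gave 0.00214 without frameshift and mitochondrial genes and -0.16 to 0.10 with 1 library left out. With 1 library left out, the ratio of PCH2 gave -0.73 to 0.48 in slow, that of REC107 -2.62 to 0.37 in fast and -2.75 to 0.24 in slow, and junction reads of REC107 -0.0884 to 2.58 in fast and -0.14 to 2.53 in slow, where the high values, without WT replicate 2, were called. The causes were not tested.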
